A study of Mus musculus with 24 samples.

Results

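Igll1, Vpreb1, Vpreb3, Cd79a, Cd79b, Pax5, Ebf1, Il7r, Dntt and Rag1 are 10 genes of early B-lymphocyte development, and they were followed through 24 RNA libraries of sorted mouse bone marrow progenitors. They were picked by gene symbol, and all 10 were found among the 24454 genes of the deposited count table. The sorted populations were 3: long-term stem cells of the blood (LTHSC), their descendants with megakaryocyte and erythroid potential (preMegE), and committed megakaryocyte progenitors (MkP), whose progeny shed platelets. All mice were of the C57BL/6N strain, and the sorts were made 12 weeks after a 5-day course of tamoxifen. The VF groups carry Vav1.Cre with the Jak2 change V617F, and were sorted as LTHSC, preMegE and MkP. The E12 groups carry Scl.Cre with a change labelled Exon12, and were analysed as LTHSC and MkP, while no E12 preMegE group was analysed here. The KI groups carry Scl.Cre with a mouse Jak2 knock-in, and were sorted as LTHSC, preMegE and MkP. Each of the 8 groups has 3 libraries. Jak2 codes for a kinase that passes on the signals of several blood cytokine receptors. The labels do not say that the KI allele is wild type, so KI is used as the common comparator and not as an unmutated control. The Cre driver changes together with the VF allele, so allele and driver cannot be told apart in any VF comparison. Nor do the labels say whether replicates are separate animals, so p-values measure the spread between these libraries, which may be technical.

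In background terms, a B-cell precursor first rearranges its heavy-chain gene with the recombinase that Rag1 codes for, and terminal deoxynucleotidyl transferase, the product of Dntt, adds bases at the joints. The new heavy chain is tested in the pre-B-cell receptor, where it pairs with a surrogate light chain made of the Igll1 and Vpreb1 products and signals through the chains coded by Cd79a and Cd79b. Ebf1 and Pax5 are the transcription factors that set up and hold B-cell identity, and Il7r codes for a chain of the interleukin-7 receptor, on which mouse B-cell precursors depend. None of these functions belongs to the textbook program of megakaryocyte or erythroid progenitors.

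Expression was measured by Smart-seq2 and is given as CPM, counts divided by library size with TMM scaling over the 24 libraries. Total counts ran from 10357877 to 29691635 per library. Markers moved with the sort labels: all 10 genes of the stem-cell list were lower in preMegE than in LTHSC, 10 of 11 tested megakaryocyte genes were higher in MkP than in LTHSC, and 9 of 10 erythroid genes were higher in preMegE than in LTHSC (edgeR quasi-likelihood test, adjusted p under 0.05). Over all genes tested, 17% were called higher in MkP and 21.3% higher in preMegE than in LTHSC. The 6 preMegE libraries are headed MEP in the deposited table and were matched by genotype and replicate number. Computed within each population, TMM factors were 0.589 in preMegE KI 1, 0.585 in MkP KI 5, 0.53 in MkP KI 6 and 0.754 in LTHSC E12 4, against 0.99 to 1.23 in the other 20 libraries. In these 4 libraries, genes shorter than 1 kb were also raised against the other libraries of their group, by a median of 2.38, 1.18, 1.67 and 1.13 on the log2 scale over 998 such genes. Igll1 at 870 bases, Vpreb1 at 768 and Vpreb3 at 602 belong to that length class, and the part of this shift in their levels was not tested. Comparisons with KI within a population that rest on these libraries are given with and without them. Fold changes between populations are given with all libraries.

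**Figure D1:**
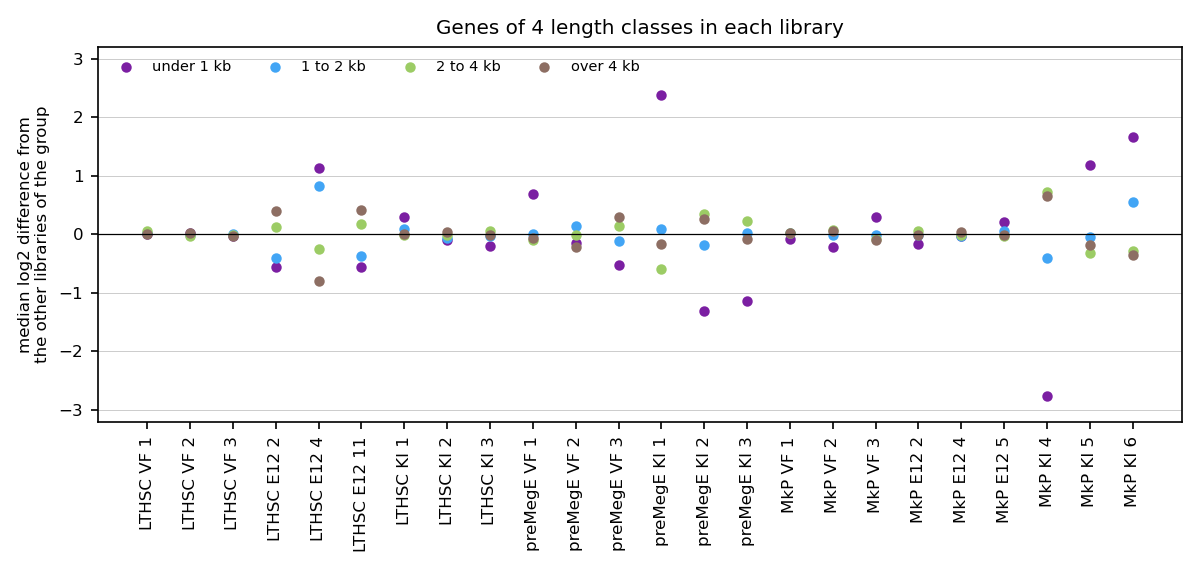
Median log2 CPM difference of each library from the other 2 libraries of its group (vertical axis), for genes of 4 length classes, in the 24 libraries (horizontal axis). The class under 1 kb stands out at 2.38 in preMegE KI 1, 1.67 in MkP KI 6, 1.18 in MkP KI 5 and 1.13 in LTHSC E12 4, and lies at -2.76 in MkP KI 4.

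All 10 members rose in preMegE against LTHSC (edgeR, adjusted p under 0.05), where 21.3% of the 14965 genes tested rose. For 8 of the 10, every preMegE library of the VF and KI groups lay above every LTHSC library of those groups, against 12.8% of all genes, with Cd79b and Pax5 as the exceptions. The members' median log2 fold change was 8.33, against -0.02 over all genes, and it is also 8.33 with Pax5 and Rag1, which had no count in these LTHSC libraries, set at their lower bounds. In bulk RNA, more cells of a type and more RNA per cell cannot be told apart, so these values do not say whether a few cells or all cells of the sort carried the transcripts.

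**Figure D2:**
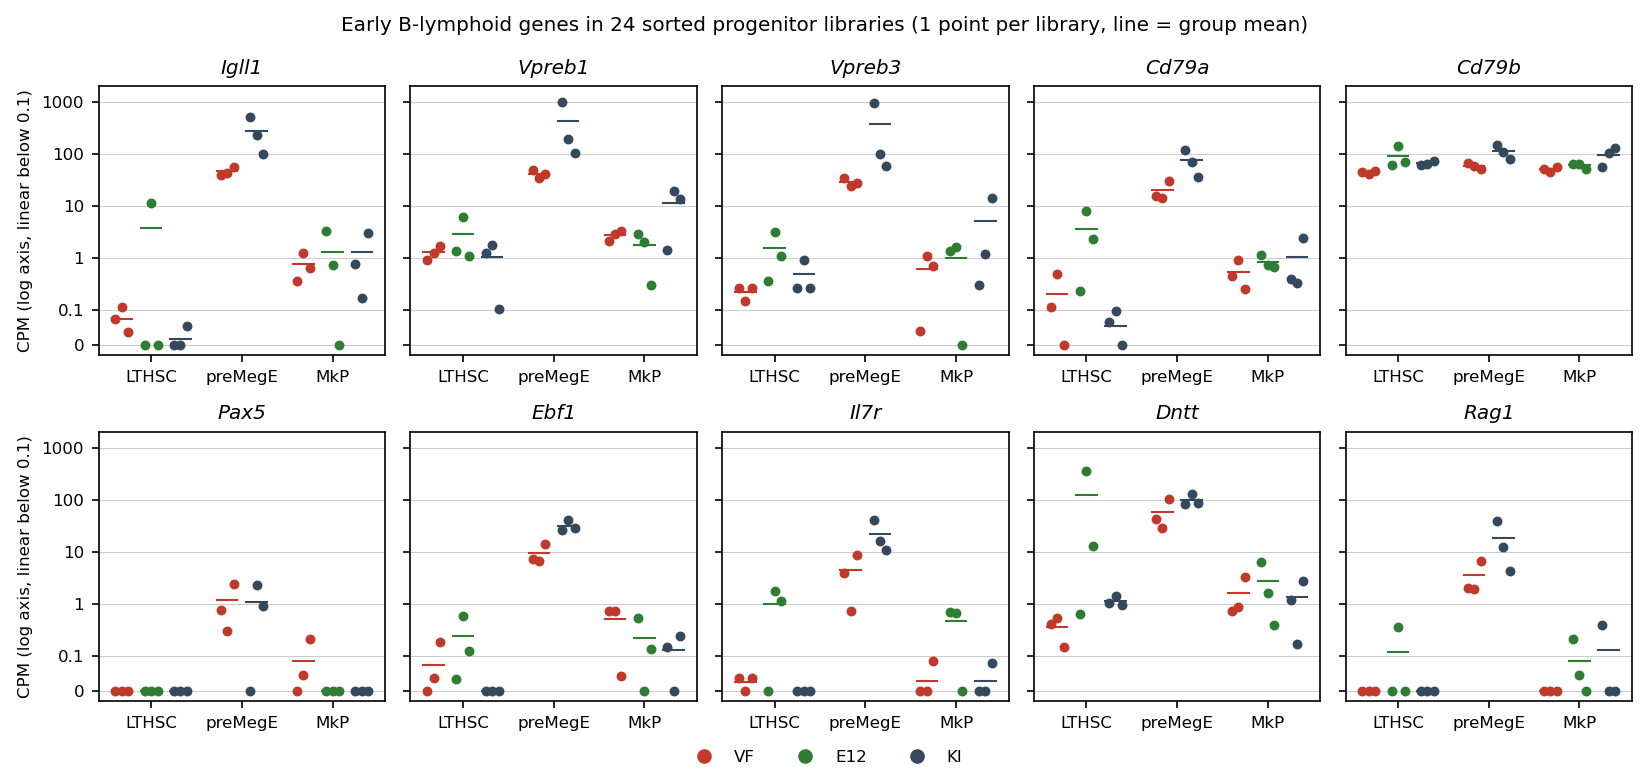
CPM of each of the 10 genes (vertical axis, log scale that turns linear below 0.1 CPM) in LTHSC, preMegE and MkP libraries; points are single libraries, lines are group means, and colours give VF, E12 and KI. In 8 panels all preMegE points lie above every VF and KI point of LTHSC, LTHSC E12 4 stands out at 352 CPM of Dntt, and Cd79b lies between 41.6 and 146 CPM in all 24 libraries.

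The surrogate light-chain genes Igll1 and Vpreb1 come first, followed by the related Vpreb3. Igll1, the lambda5 chain, had 40.01, 42.3 and 56.9 CPM in preMegE VF and 509.8, 225 and 100.5 CPM in preMegE KI, against 0.0749, 0.113 and 0.0377 CPM in LTHSC VF and 0, 0 and 0.0537 CPM in LTHSC KI. The preMegE and LTHSC libraries of both genotypes were thus fully separated, at 16164 counts against 7. Its log2 fold change in preMegE over LTHSC was 11.34 ± 1.46 (SE, adjusted p = 7.47e-06, edgeR).

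Vpreb1, the VpreB chain that pairs with lambda5, had 48.0, 34.5 and 41.7 CPM in preMegE VF and 968, 189 and 102 CPM in preMegE KI, against 0.937, 1.28 and 1.73 CPM in LTHSC VF and 1.26, 1.76 and 0.107 CPM in LTHSC KI. A few reads were therefore present in each of these LTHSC libraries, and the log2 fold change was 6.81 ± 0.78 (SE, adjusted p = 2.27e-06, edgeR). Vpreb1 has a near copy in Vpreb2. Of the 50-base words of the Vpreb1 transcript, 32.5% also occur in Vpreb2, so the split of reads between them is uncertain, and Vpreb2 rose too, by 7.17 ± 0.88 (SE, adjusted p = 4.85e-06, edgeR).

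Vpreb3, a VpreB-related gene of B-cell precursors, had 34.6, 23.9 and 27.8 CPM in preMegE VF and 938, 98.7 and 59.4 CPM in preMegE KI, against 0.262, 0.15 and 0.264 CPM in LTHSC VF and 0.265, 0.927 and 0.268 CPM in LTHSC KI. Its log2 fold change was 8.23 ± 1.08 (SE, adjusted p = 9.24e-06, edgeR), and ran from 7.13 to 8.67 over fits that left out 1 library. The annotated predicted gene Gm16221 overlaps the Vpreb3 locus, and the strand setting of the counting is not given in the sources used here. The library preMegE KI 1 held the highest CPM of all 3 genes. For Igll1 the margin depends on the scaling: by library size alone, without TMM factors, preMegE KI 1, 2 and 3 had 276, 234 and 98.4 CPM. For Vpreb1 they had 524, 196 and 99.8 CPM on that scale, and for Vpreb3 508, 102 and 58.1 CPM.

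Igll1 lies at chr16:16860671-16863985 and Vpreb1 at chr16:16868401-16869255 of GRCm38.p6, next to each other on the same strand. Over the 24 libraries, log2 CPM of Igll1 had a Pearson's r of 0.91 with Vpreb1 and of 0.93 with Cd79a. The promoter windows of these 3 genes are shown, each running from 250 bases before to 50 bases after the RefSeq start on the gene's own strand. Matches to the E-box CAGNTG on either strand are in capitals.
Igll1: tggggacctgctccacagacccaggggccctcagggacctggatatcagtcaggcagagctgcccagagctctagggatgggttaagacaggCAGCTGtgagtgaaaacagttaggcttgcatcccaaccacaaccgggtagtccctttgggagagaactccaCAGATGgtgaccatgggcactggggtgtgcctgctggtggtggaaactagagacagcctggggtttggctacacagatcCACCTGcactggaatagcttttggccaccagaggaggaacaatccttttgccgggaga
Vpreb1: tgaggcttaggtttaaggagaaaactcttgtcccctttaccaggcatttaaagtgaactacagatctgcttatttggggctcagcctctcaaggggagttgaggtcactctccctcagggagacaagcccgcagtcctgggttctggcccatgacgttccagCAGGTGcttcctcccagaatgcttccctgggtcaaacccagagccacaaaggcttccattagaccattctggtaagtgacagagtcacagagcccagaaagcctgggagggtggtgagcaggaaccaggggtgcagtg
Cd79a: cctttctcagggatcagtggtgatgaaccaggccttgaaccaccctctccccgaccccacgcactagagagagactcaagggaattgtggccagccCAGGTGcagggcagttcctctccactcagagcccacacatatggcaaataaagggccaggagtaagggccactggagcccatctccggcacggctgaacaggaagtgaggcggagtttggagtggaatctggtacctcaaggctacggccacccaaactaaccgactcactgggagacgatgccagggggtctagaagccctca
The windows are chr16:16863936-16864235 (minus strand), chr16:16869206-16869505 (minus strand) and chr7:24897247-24897546 (plus strand) of GRCm38.p6. The E-box is the kind of motif bound by the E proteins that act in early B cells, and it was searched on both strands, so that CAGNTG and its reverse complement CANCTG both count as matches. Igll1 has 3 matches, Vpreb1 has 1 and Cd79a has 1. Over the 9 members with a window in the RefSeq table, 6 held a match, against 51.4% of the 32851 windows of that length, so the match is common. The Ebf1 palindrome, TCCC and GGGA with any 2 bases between them, also searched on both strands, was in 0 of the 9 and in 0.904% of all windows.

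Of the signalling chains, Cd79a followed the surrogate light-chain genes, while Cd79b differed far less. Cd79a had 15.3, 14.4 and 30.1 CPM in preMegE VF and 121, 69.2 and 36.1 CPM in preMegE KI, against 0.112, 0.488 and 0 CPM in LTHSC VF and 0.0662, 0.0976 and 0 CPM in LTHSC KI. All 6 preMegE values were above all 6 LTHSC values, and the log2 fold change was 8.44 ± 0.89 (SE, adjusted p = 9.63e-07, edgeR). Cd79b had 67.4, 57.9 and 50.4 CPM in preMegE VF and 146, 108 and 81.0 CPM in preMegE KI, against 44.4, 41.6 and 47.4 CPM in LTHSC VF and 62.1, 63.2 and 72.0 CPM in LTHSC KI. Within each genotype every preMegE value lay above every LTHSC value, but the ranges overlap across genotypes. By library size alone they overlap within each genotype as well. The log2 fold change of Cd79b was 0.58 ± 0.22 (SE, adjusted p = 0.0428, edgeR). It was not called with RLE scaling (adjusted p = 0.0531), with library size alone (adjusted p = 0.603) or in 10 of 12 fits that left out 1 library.

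The transcription factors were present at lower levels. Ebf1 had 7.36, 6.75 and 14.4 CPM in preMegE VF and 26.7, 40.2 and 28.8 CPM in preMegE KI, against 0, 0.0375 and 0.188 CPM in LTHSC VF and 0 in all 3 LTHSC KI libraries. The gap rests on 2722 counts against 6, and the log2 fold change was 9.69 ± 1.08 (SE, adjusted p = 2.67e-06, edgeR). Pax5, which Ebf1 helps to switch on, had 0.78, 0.305 and 2.46 CPM in preMegE VF and 0, 2.3 and 0.906 CPM in preMegE KI, and was at 0 in all 9 LTHSC libraries. With 173 counts against a floor of 3 over the 6 LTHSC VF and KI libraries, Pax5 was at least 60.0-fold higher in preMegE (adjusted p = 0.00325, edgeR). The annotation places Mir5120, Gm12462 and 5730488B01Rik within the Pax5 locus, so its few reads are the least certain of the set, and preMegE KI 1, the library with the highest Igll1 CPM, held none.

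Il7r and the genes of receptor rearrangement had the same order of populations. Il7r had 4.00, 0.741 and 8.78 CPM in preMegE VF and 40.5, 15.9 and 10.6 CPM in preMegE KI, against 0.0375, 0 and 0.0377 CPM in LTHSC VF and 0 in all 3 LTHSC KI libraries. The 2 counts in LTHSC make the size of the gap uncertain: the pooled ratio was 702, with an exact 95% interval of 194 to 5804 that covers counting error only. Rag1 had 2.05, 1.96 and 6.71 CPM in preMegE VF and 38.4, 12.6 and 4.23 CPM in preMegE KI, and was at 0 in the LTHSC libraries of both genotypes, so it was at least 355-fold higher in preMegE (adjusted p = 0.000106, edgeR).

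Dntt had 42.6, 28.8 and 101 CPM in preMegE VF and 83.9, 131 and 86.9 CPM in preMegE KI, against 0.412, 0.526 and 0.151 CPM in LTHSC VF and 1.06, 1.41 and 0.966 CPM in LTHSC KI. Unlike the surrogate light-chain genes, Dntt was not highest in preMegE KI 1, and 1 VF library lay within the KI range. Its log2 fold change over LTHSC was 6.87 ± 1.06 (SE, adjusted p = 5.35e-05, edgeR).

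Set on a common scale per kb of transcript, the mean level over the 6 preMegE libraries ran from Vpreb3 at 327 CPM per kb through Vpreb1 at 300.2, Igll1 at 187, Cd79b at 69.1, Dntt at 37.2, Cd79a at 35.9, Il7r at 4.18, Ebf1 at 3.89 and Rag1 at 1.65 to Pax5 at 0.931. These means include KI 1, and the order of the first 4 changed between libraries. Vpreb3 spanned 39.7 to 1559 CPM per kb, Vpreb1 45.0 to 1261, Igll1 46.0 to 586 and Cd79b 40.9 to 118. Ebf1 and Il7r also overlapped, at 1.27 to 7.55 and 0.231 to 12.6 CPM per kb.

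The make-up of the signal differed by library. Igll1, Vpreb1 and Vpreb3 made up 17.99%, 24.4% and 22.4% of the members' summed CPM per kb in VF 1. Cd79b made up 21.4% there, more than Igll1, and in VF 2 its 22.7% exceeded Vpreb1 at 21.7% and Vpreb3 at 19.2%. In KI 2, Igll1, Vpreb1 and Vpreb3 made up 29.2%, 27.7% and 18.5%. In KI 1, by contrast, Vpreb3 alone gave 42.4% and Vpreb1 34.3%, while Cd79b gave 3.22%, against 9.86% to 22.7% in the other 5 libraries, and Dntt gave 1.07%, against 6.54% to 16.7%. The ratio of Dntt to Igll1 in CPM per kb was 0.435, 0.278 and 0.728 in VF and 0.0672, 0.239 and 0.353 in KI. For this log2 difference of 1.32 an exact 2-sided permutation test gave p = 0.2, where 0.1 is the smallest p that 3 against 3 allow.

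**Figure D3:**
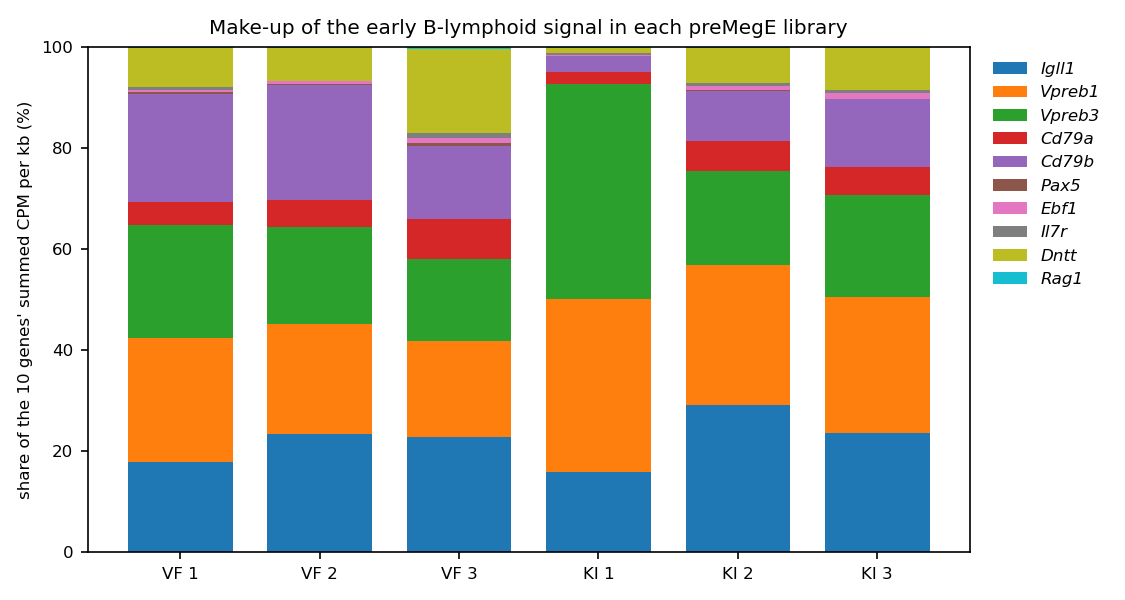
Share of each gene in the summed CPM per kb of the 10 genes (vertical axis, percent) in the 3 VF and 3 KI preMegE libraries (horizontal axis). The bar of KI 1 holds 42.4% Vpreb3 and 1.07% Dntt, against 16.2% to 22.4% Vpreb3 and 6.54% to 16.7% Dntt in the other 5 libraries.

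In MkP, 9 of the 10 members were lower than in preMegE (edgeR, adjusted p under 0.05), where 4.26% of all genes were lower. In 8 of the 10, no MkP library of the VF and KI groups reached the lowest preMegE library, against 2.02% of all genes. Igll1 had 0.371, 1.25 and 0.633 CPM in MkP VF and 0.779, 0.168 and 2.99 CPM in MkP KI, a log2 fold change of -6.81 ± 1.10 against preMegE (SE, adjusted p = 4.72e-04, edgeR). Dntt had 0.741, 0.881 and 3.29 CPM in MkP VF and 1.17, 0.168 and 2.75 CPM in MkP KI, with a log2 fold change of -5.62 ± 0.99 (SE, adjusted p = 0.00102, edgeR). A replicate block could not test these calls, because KI 6 alone sets the MkP KI level in that fit. The log2 fold change was -4.56 for Vpreb1, -5.82 for Vpreb3, -5.67 for Cd79a, -5.94 for Ebf1, -8.36 for Il7r and -7.99 for Rag1, with adjusted p-values of at most 0.00149 in edgeR. The call for Pax5, at -5.67 ± 1.54 (SE, adjusted p = 0.0447, edgeR), was lost in 11 of 12 fits that left out 1 library. Cd79b, at -0.22 ± 0.22 (SE, adjusted p = 0.656, edgeR), overlapped between the sorts.

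Between MkP and LTHSC the members overlapped. In 0 of the 10 were the groups free of overlap between MkP and LTHSC libraries, against 1.4% of all genes higher and 3.35% lower without overlap. Ebf1 alone was called, at a log2 fold change of 2.48 ± 0.90 (SE, adjusted p = 0.0391, edgeR), where 17% of all genes were called higher. At an unadjusted p under 0.05, 3 of 10 were higher, against 22% of all genes, and DESeq2 called 2 of 10, where it called 38% of all genes. Among the 10, Pax5 and Rag1 were at or near 0 in both sorts. Their SE in edgeR was 3009 and 3812, so the comparison could not place them. The call for Ebf1 rests on 60 counts in 9 MkP libraries against 24 in 9 LTHSC libraries, and it was lost in 12 of 18 fits that left out 1 library and with library size alone (adjusted p = 0.0725). With the replicate block edgeR called 4 of 10 members higher, where it called 32.4% of all genes in either direction, and Ebf1 was not among the 4 (adjusted p = 0.136). Among VF and KI libraries, the level of the members other than Cd79b and Pax5 was thus higher in every preMegE library than in any LTHSC or MkP library. The overlap of LTHSC and MkP holds with E12 included. Among VF and KI libraries alone, Igll1 did not overlap, at no more than 0.113 CPM in LTHSC and no less than 0.168 CPM in MkP. It had 7 counts in those LTHSC and 115 in those MkP libraries, and the lowest MkP value, in KI 5, is 1 count.

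Other genes of the pathway were examined from a list. Of the 22 genes listed for B-cell development, 20 were in the table and 19 were tested. In preMegE against LTHSC, 13 of 19 rose and 1 fell, where 21.3% of all genes rose. Their median log2 fold change was 4.48, against -0.02 over all genes. Vpreb2 was the first by p and Mzb1, a chaperone of B-lineage cells, the second, at 8.15 ± 1.11 (SE, adjusted p = 2.11e-05, edgeR). Lef1, a transcription factor of lymphocyte precursors, rose by 5.52 ± 0.96 on the log2 scale (SE, adjusted p = 1.82e-04), and Pou2af1, a B-cell coactivator, by 9.23 ± 1.53 (SE, adjusted p = 2.05e-04), both in edgeR. Cd72 fell, by 0.74 on the log2 scale (adjusted p = 0.00762, edgeR). In MkP against preMegE, 12 of the 19 were lower and 0 higher in edgeR, where 4.26% of all genes were lower. At an unadjusted p under 0.05, 13 were lower and 0 higher.

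Ly6d, a surface protein of B-lineage-committed lymphoid progenitors, had 7.02, 1.44 and 5.72 CPM in preMegE VF and 133, 16.5 and 14.7 CPM in preMegE KI. Ms4a1, the CD20 gene of mature B cells, had at most 24 counts in any preMegE library and was at 0 in 4 of 6. Ly6d was thus detected in every preMegE library, and Ms4a1 was not detected in most of them.

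**Figure D4:**
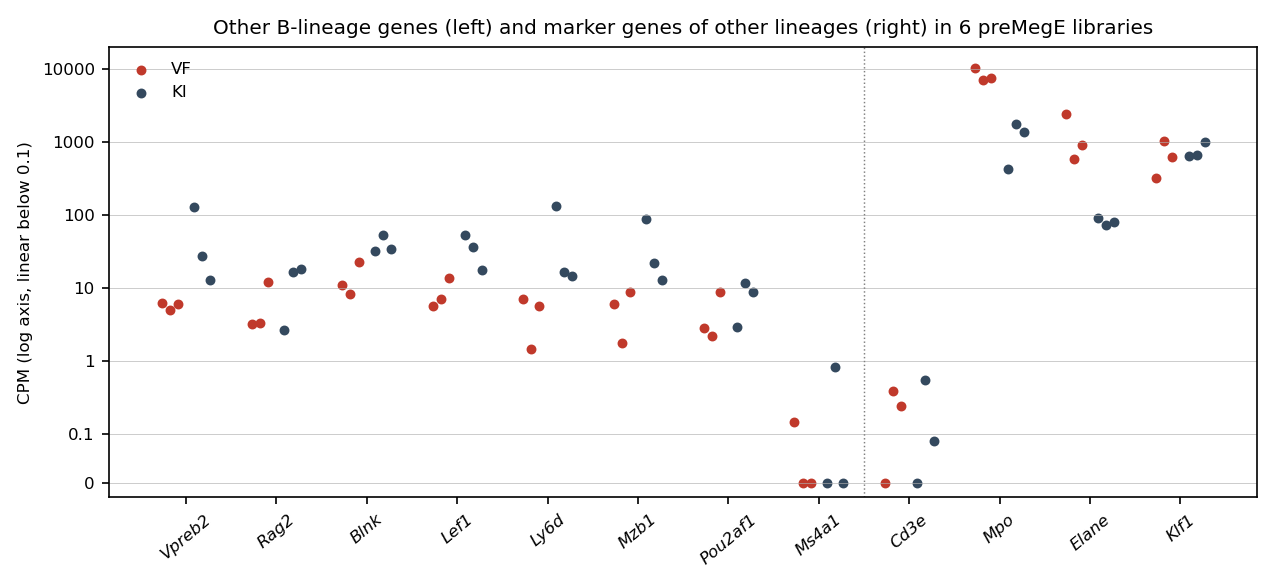
CPM (vertical axis, log scale, linear below 0.1) of 8 other B-lineage genes, left of the dotted line, and of the T-cell gene Cd3e, the neutrophil genes Mpo and Elane and the erythroid factor Klf1, right of it, in the 3 VF and 3 KI preMegE libraries. Mpo lies between 6964 and 10282 CPM in VF and between 425 and 1767 CPM in KI, and Ms4a1 is at 0 in 4 of the 6 libraries.

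Of 8 genes of interleukin-7 receptor signalling, 0 rose in preMegE against LTHSC in edgeR, also 0 at an unadjusted p under 0.05, and 4 fell: Il2rg, the shared cytokine receptor chain, by 1.49 on the log2 scale, the kinase genes Jak3 by 1.49 and Jak1 by 0.90, and Crlf2, a receptor chain that also pairs with the Il7r product, by 0.60. Over all 14965 genes tested, 6092 were called in this contrast, 3183 of them higher. Of 11 lymphoid regulators that other lineages use too, 3 rose and 1 fell. The riser of smallest p was Ikzf3, a B-lineage zinc-finger factor, at 7.14 ± 1.77 (SE, adjusted p = 0.00474, edgeR), while Foxo1 fell by 0.98. Of 9 genes of lymphoid-primed progenitors, 4 rose and 2 fell in edgeR.

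Markers of other cell types in the preMegE sort moved as well, where 6092 of all 14965 genes tested were called against LTHSC, 3183 of them higher. In preMegE against LTHSC, 6 of 10 tested T-cell and innate lymphoid genes rose and 1 fell, 4 of 6 natural killer cell genes rose, 3 of 6 plasmacytoid dendritic cell genes rose, and 4 of 7 mature B and plasma cell genes fell, with 0 higher in edgeR and 1 higher at an unadjusted p under 0.05. Of 12 neutrophil and monocyte genes 10 rose and 1 fell, 6 of 8 mast cell, basophil and eosinophil genes rose, and 5 of 8 preMegE genes rose and 1 fell. The whole T-cell list summed to 24.1 to 40.7 CPM in preMegE VF, 38.4 to 74.6 CPM in preMegE KI, 82.8 to 102 CPM in LTHSC VF and 93.7 to 102 CPM in LTHSC KI. Of its CD3 chain genes, Cd3d and Cd3g were above 0 in all 6 preMegE libraries, with at most 102 and 40 counts, and Cd3e was at 0 in 2 of 6, with at most 16 counts. Cd3d was highest in preMegE KI 1, at 12.9 CPM. Tcf7, a T-lineage transcription factor, was also above 0 in all 6, with at most 109 counts. The part of any of these cells in the members' levels was not tested.

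Between genotypes, the preMegE sorts showed the members lower in VF than in KI, without a call at the threshold. In edgeR 0 of 10 members passed an adjusted p of 0.05, where 0.0151% of the 13231 genes tested did. At an unadjusted p under 0.05, 8 of 10 were lower, against 3.63% of all genes. The groups did not overlap for 7 of 10, Igll1, Vpreb1, Vpreb3, Cd79a, Cd79b, Ebf1 and Il7r, all lower in VF, against 5.44% of all genes. By library size alone Ebf1 overlapped, at 14.5 CPM in both VF 3 and KI 1. DESeq2 called 4 of 10 lower, namely Igll1, Vpreb1, Vpreb3 and Ebf1, where it called 0.514% of all genes. The members' median log2 fold change was -2.16, against -0.03 over all genes.

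Igll1 averaged 46.4 ± 9.13 CPM in VF and 278 ± 210 CPM in KI (SD, n = 3 each), and its log2 fold change was -2.62 ± 0.58 (SE, adjusted p = 0.548, edgeR, lower in 3 of 3 VF libraries than in any KI library). Vpreb1 averaged 41.4 ± 6.71 CPM in VF and 420 ± 477 CPM in KI (SD, n = 3 each), with a log2 fold change of -3.37 ± 0.81 (SE, adjusted p = 0.608, edgeR). KI 1 was the highest KI library for both genes, by library size alone as well, where for Igll1 it had 276 CPM and KI 2 had 234 CPM.

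Ebf1, which is 5325 bases long, was not highest in KI 1. It averaged 9.50 ± 4.24 CPM in VF and 31.9 ± 7.26 CPM in KI (SD, n = 3 each), with a log2 fold change of -1.78 ± 0.40 (SE, adjusted p = 0.548, edgeR). Dntt averaged 57.6 ± 38.5 CPM in VF and 101 ± 26.6 CPM in KI (SD, n = 3 each), at -0.85 ± 0.46 (SE, adjusted p = 0.642, edgeR), and its groups overlapped. Pax5 averaged 1.18 ± 1.13 CPM in VF and 1.07 ± 1.16 CPM in KI (SD, n = 3 each), at 0.04 ± 1.18 (SE, adjusted p = 0.996, edgeR), and its sign turned to -0.43 without KI 1.

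Without preMegE KI 1, 9 of 10 members kept their negative sign and Pax5 turned negative. In that fit Igll1 stood at -1.81 and Vpreb1 at -1.81, and these 2 of 10 members were called lower in edgeR with adjusted p = 0.0392 and 0.0271, where 0.235% of all genes were called. Adjusted p for Igll1 ran from 0.00257 to 1 over the 12 alternatives, and for Vpreb1 from 0.0012 to 1. Vpreb3 stood at -1.46 without KI 1, against -3.70 with it. Numbers were taken to pair the preMegE samples, which the labels do not state. With the replicate block edgeR called 0 of 10 members and 10 of all genes (0.0756%), against 2 of all genes without it. Genes under 1 kb as a class were lower in VF by a median of 0.73 with all 6 libraries, and higher by 0.05 without KI 1. These medians are differences of log2 CPM scaled over the 24 libraries, unlike the fold changes of the edgeR fits. The part of gene length in the members' difference was not tested.

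**Figure D5:**
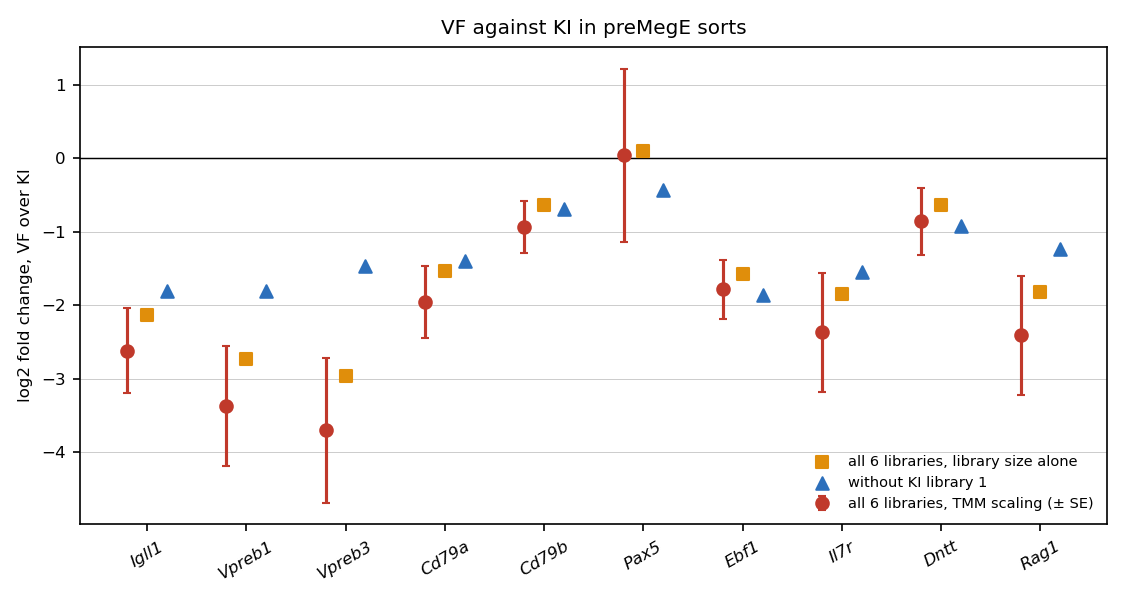
Log2 fold change of VF over KI in preMegE (vertical axis) for each of the 10 genes (horizontal axis), with all 6 libraries under TMM scaling (circles, bars ± SE), under library size alone (squares), and without KI 1 (triangles). Of the 10 circles, 9 lie below 0, and Vpreb3 lies at -1.46 without KI 1, against -3.70 with all 6 libraries.

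The rest of the pathway also lay lower in VF without a call. Of 18 tested B-cell genes, 0 were called between VF and KI in edgeR. At an unadjusted p under 0.05, 9 of them were lower, against 3.63% of all genes. Log2 fold changes were negative in 17 of 18, with a median of -1.46. Vpreb2 stood at -3.29, Lef1 at -2.07, Ly6d at -3.58 and Mzb1 at -2.95. Other lineages also differed between these libraries: 8 of 12 neutrophil and monocyte genes were higher in VF at an unadjusted p under 0.05 with 0 called in edgeR, and that list summed to 8933 to 19222 CPM in VF and 2552 to 3981 CPM in KI. Of 10 erythroid genes, 10 had negative log2 fold changes with 0 called and 2 lower at an unadjusted p under 0.05, and their list summed to 3544 to 7828 CPM in VF and 7552 to 10614 CPM in KI. The part of these shifts in the members' difference was not tested.

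Among the other marker lists, edgeR called 0 genes between VF and KI in preMegE. At an unadjusted p under 0.05, 4 of 9 T-cell genes, 2 of 6 mature B and plasma cell genes and 2 of 11 shared lymphoid regulators were lower, against 3.63% of all genes. At the same threshold, 2 of 9 lymphoid-primed genes and 1 of 8 mast cell, basophil and eosinophil genes were higher. For the 8 interleukin-7 signalling, 4 natural killer, 5 plasmacytoid dendritic, 10 stem-cell, 11 megakaryocyte and 8 preMegE genes tested, 0 passed that threshold.

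In LTHSC, the members other than Cd79b stayed under 2 CPM in every VF and KI library. LTHSC E12 4 had 352 CPM of Dntt, 11.4 CPM of Igll1, 8.11 CPM of Cd79a and 144 CPM of Cd79b. LTHSC E12 11 had 12.9 CPM of Dntt, 2.36 CPM of Cd79a and 1.13 CPM of Il7r, and LTHSC E12 2 had 0.637 CPM of Dntt and no Igll1 or Il7r. The E12 libraries thus differed widely among themselves, and in E12 4 Dntt stood far above Igll1.

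LTHSC E12 4 also held 16072 CPM of Mpo, 362 CPM of Jchain and 17.8 CPM of Ly6d, while its stem-cell list summed to 427 CPM, against 1231 to 1589 CPM in the other 8 LTHSC libraries. The part of other cells in its Dntt level was not tested. Between E12 and KI in LTHSC, 5 members passed the filter on low counts, and Igll1, Pax5, Ebf1, Il7r and Rag1 did not. Of the 5 tested, 0 were called in edgeR, where 0.0424% of the 14152 genes tested were called. At an unadjusted p under 0.05, 2 of 5 were higher, against 8.48% of all genes: Cd79a at 5.92 ± 1.76 (SE, adjusted p = 0.258, edgeR) and Dntt at 6.77 ± 1.76 (SE, adjusted p = 0.223, edgeR). DESeq2 called 2 of 5 higher, where it called 3.09% of all genes. Without E12 4, edgeR called 0 of 5 and 0.125% of all genes, and Dntt stood at 2.49 (adjusted p = 0.319). Without E12 2, Dntt was called higher, at 7.34 (adjusted p = 0.0283, edgeR), as 1 of 6 tested members, where 2.74% of all genes were called. Of the 5, only Cd79a had no overlap between the groups, against 7.62% of all genes.

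Between VF and KI in LTHSC, edgeR called 0 of 5 tested members, where it called 0.0919% of all genes. At an unadjusted p under 0.05 there were 0, against 8.11% of all genes, and DESeq2 called 0 of 5, where it called 1.77% of all genes. Vpreb3, Cd79b and Dntt were lower in VF without overlap, against 15.3% of all genes, though Vpreb3 overlapped by library size alone. Between VF and E12 in LTHSC, edgeR called 0 of 5 members, where it called 0.0353% of all genes, and 4 were lower at an unadjusted p under 0.05, against 6.98%. DESeq2 called 1 of these 5 lower, where it called 1.24% of all genes. Of the 5, 3 (Vpreb3, Cd79b and Dntt) were lower in VF without overlap, against 9.83% of all genes.

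In MkP, 7 members passed the filter and were tested between genotypes, and Pax5, Il7r and Rag1 did not pass. For VF against KI, edgeR called 0 of 7, where it called 0% of 13435 genes, and 2 were lower at an unadjusted p under 0.05, Vpreb1 and Cd79b, against 19.4% of all genes. DESeq2 called 1 of 7 lower, where it called 18.8% of all genes. Cd79b alone had no overlap, at 52.1, 44.8 and 54.9 CPM in MkP VF and 55.6, 103 and 127 CPM in MkP KI, where 8.08% of all genes were lower without overlap, and its log2 fold change was -1.01 ± 0.32 (SE, adjusted p = 0.0905, edgeR). By library size alone the gap was smaller, at 54.9, 47.4 and 57.8 CPM in MkP VF and 62.4, 59.6 and 66.5 CPM in MkP KI. Cd79b was likewise below KI in every VF library of LTHSC, at -0.60 ± 0.33, and of preMegE, at -0.94 ± 0.35 (SE, neither called in edgeR). Without MkP KI 5 and KI 6, which leaves KI 4 as the only KI library and assumes that it varies like the others, edgeR called 0 members and 0.414% of all genes. Without MkP KI 4 it called 2 of 8 tested members lower, where it called 48.9% of all genes in either direction.

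Vpreb1 had 2.14, 2.92 and 3.33 CPM in MkP VF, 2.94, 2.05 and 0.302 CPM in MkP E12 and 1.44, 19.1 and 13.4 CPM in MkP KI. The high values stood in KI 5 and KI 6, the libraries in which short genes as a class were higher. For E12 against KI in MkP, edgeR called 0 of 7, where it called 0% of all genes, and 2 of 7, Vpreb1 and Cd79b, were lower at an unadjusted p under 0.05, against 20.2%. DESeq2 called 1 of 7, where it called 21.2% of all genes, and 0 of 7 were free of overlap, where 8.94% of all genes were lower and 13.6% higher without overlap. Without KI 5 and KI 6 edgeR called 0 members and 0.684% of all genes, and without KI 4 it called 2 of 8 tested members lower, where it called 49.8% of all genes. For VF against E12 in MkP, edgeR called 0 of 7, where it called 0% of all genes, 0 passed an unadjusted p under 0.05, against 1.24%, DESeq2 called 0, where it called 0.067% of all genes, and 0 were free of overlap, against 7.03% of all genes higher and 7.55% lower.

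Tests of whether a genotype difference changed between populations called 0 of 10 members in edgeR in all 4 cases. In LTHSC and MkP, Pax5 had at most 5 counts in any library and Rag1 at most 13, so for these genes the tests could measure little. For VF against KI in preMegE minus LTHSC, edgeR called 0% of all genes, and 3 members, Vpreb1 at -3.67, Cd79a at -3.68 and Ebf1 at -5.62, were lower at an unadjusted p under 0.05, against 2.96% of all genes, with 0 called by DESeq2, which called 0.0735% of all genes. For VF against KI in MkP minus LTHSC, where edgeR called 0.0134% of all genes, 0 members passed an unadjusted p under 0.05, against 14.4%, and DESeq2 called 0, where it called 0.782% of all genes. For E12 against KI in MkP minus LTHSC, where edgeR called 0.0334% of all genes, 6 members were lower at an unadjusted p under 0.05, against 17.3%, and DESeq2 called 4 of 10, where it called 13.6% of all genes. For VF against E12 in MkP minus LTHSC, where edgeR called 0% of all genes, 3 were higher at an unadjusted p under 0.05, against 2.53%, and DESeq2 called 1, where it called 0.287% of all genes. A larger genotype difference in preMegE than in LTHSC was therefore not shown by the test of that difference. For members this scarce in LTHSC the test could not decide. Pax5 and Rag1 had no count in LTHSC VF and KI, and their SE in the test was 350 and 7616. Igll1, Il7r and Ebf1 had 7, 2 and 6 counts there, and those of Ebf1 were all in VF.

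Genes of most similar pattern over the 24 libraries came partly from the set itself. Correlations are Pearson's r of log2 CPM over 24 libraries that share 3 populations, given as a description. For Igll1 the 5 nearest genes were Cd79a at 0.93, Rag1 at 0.93, Ebf1 at 0.93, C1qtnf12 at 0.93 and Prss50 at 0.93. For Vpreb1 they were Vpreb2 at 0.96, Vpreb3 at 0.94, Blvrb at 0.93, Igll1 at 0.91 and Mt2 at 0.90. Vpreb3 had Vpreb2 at 0.95, Vpreb1 at 0.94, Gfra2 at 0.93, Igll1 at 0.92 and Emc9 at 0.92.

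For Dntt they were Il7r at 0.90, Cd79a at 0.89, Mzb1 at 0.87, Igll1 at 0.86 and Rag2 at 0.84. For Cd79b they were Manbal at 0.92, Nosip at 0.91, Zfp414 at 0.90, Mrnip at 0.90 and B9d2 at 0.89, none of them a gene of the B-cell lists. Cd79a was nearest to Rhd at 0.93, ahead of Igll1.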

How the data were processed

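RNA from 24 sorted bone marrow samples was sequenced with Smart-seq2, per the labels' protocols. The deposited values are raw read counts per gene, made by the authors with STAR 2.7.0c and featureCounts (Subread 1.6.4) on mm10, per the submitters' processing notes. The annotation and strand setting are not given in the sources used here. Rows without a symbol (16) held at most 0.0132% of a library's counts and were left out. Samples were grouped by the labels' genotype and population, and 6 columns headed MEP were taken as the preMegE samples of the same genotype and number. No library pair was a duplicate: the smallest chi-square per degree of freedom over 276 pairs was 19.8.

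Genes passing filterByExpr were tested 2-sided with edgeR 4.0.16 in R 4.3.3 (quasi-likelihood F test, TMM, robust), with Benjamini-Hochberg adjustment over all genes and a threshold of 0.05. Genotypes were compared within a population, and populations and differences of differences over all 24 libraries (preMegE contrasts use VF and KI). Pipelines were tested on simulated data. Alternatives were RLE scaling, no filter, DESeq2 1.42.0, leaving out each library, leaving out those with a TMM factor under 0.8 in their population, a replicate block and, added after seeing the data, library size alone. Same-numbered VF and KI preMegE samples deviated together (correlations 0.507, 0.213 and 0.460), so numbers were taken to pair those samples. The labels do not state a pairing, and different-numbered samples were not compared. Same-numbered LTHSC and MkP samples did so in VF (0.227, 0.176 and 0.151) but not in E12 (-0.0738 and -0.125), and in no other set of 3 or more pairs was every correlation over 0.1. The 10 members are all named, with the 5 genes of highest Pearson r for the most abundant members, and up to 5 genes per list past the threshold by p. Members and gene lists were chosen with earlier results of these data known. Total counts limit precision, and intervals and floors (3 counts) cover counting error only.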

Additional observations from a re-analysis of the deposited data

How the results depend on the processing

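Under the alternatives run, the preMegE calls against LTHSC covered 9 to 10 members, also when 1 library was left out. The MkP calls against preMegE covered 8 to 9, also when 1 library was left out. That range leaves out the fits in which 1 library alone sets the MkP KI level, namely the replicate block and the fit without libraries of low TMM factor. DESeq2 called 2 members for E12 against KI and 1 for VF against E12 in LTHSC, 4 for VF against KI in preMegE, 1 for VF against KI and 1 for E12 against KI in MkP, 2 for MkP against LTHSC, 4 for the E12 against KI difference between MkP and LTHSC, and 1 for that of VF against E12. Without the libraries of low TMM factor, 2 members were called for VF against KI in preMegE, where 32 of 13613 genes were called. That setting leaves MkP KI 4 as the only KI library of MkP, so no count is given for MkP against LTHSC. Library size alone gave 0 for MkP against LTHSC, where it called 4396 of 14965 genes. With the replicate block, 2 members were called for VF against KI in LTHSC, where 704 of 14152 genes were called. Same-numbered samples did not deviate together there. No block count is given for MkP against LTHSC or preMegE. MkP KI shares no number with the other KI groups, so KI 6 alone sets its level in that fit. For VF against KI in preMegE the block called 0 members, where it called 10 of 13231 genes. No paired analysis was possible because fewer than 2 numbers are shared for E12 against KI and VF against E12 in LTHSC and for VF against KI and VF against E12 in MkP. The causes of these moves were not tested.

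Leaving out 1 library gave 0 to 1 members for E12 against KI and for VF against E12 in LTHSC, 0 to 2 for VF against KI in preMegE, 0 to 2 for VF against KI and for E12 against KI in MkP, 0 to 4 for MkP against LTHSC, and 0 to 5 for E12 against KI and 0 to 1 for VF against E12 in the differences between MkP and LTHSC. The highest of these counts came, in the same order, with 396 and 305 of 14470 genes called in LTHSC and 32 of 13613 in preMegE. In MkP they came with 6732 and 6856 of 13762 genes, and for MkP against LTHSC with 6165 of 15323. For the differences they came with 4530 of 15349 and 26 of 15318 genes. Pax5 changed sign between VF and KI in preMegE, from -0.98 to 1.15 over the fits that left out 1 library. It stood at -0.43 without KI 1 and at -0.07 without KI 3.

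Counts over all genes moved more, to a range of 1 to 704 around 13 for VF against KI in LTHSC, 2 to 438 around 6 for E12 against KI and 1 to 305 around 5 for VF against E12 there, 0 to 68 around 2 in preMegE, 0 to 6732 for VF against KI and 0 to 6856 for E12 against KI around 0 in MkP, 0 to 11 around 0 for VF against E12 there, and 685 to 2708 around 1128 for MkP against preMegE. For the differences of differences they were 0 to 2614, 0 to 33, 0 to 4530 and 0 to 43 in the order VF against KI in MkP, VF against KI in preMegE, E12 against KI and VF against E12, all against LTHSC.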
